A study of Mus musculus with 65 samples.

Results

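The mitochondrial carrier family Slc25 was described in single outer hair cells (OHCs) of the mouse cochlea. Members were the rows of the deposited count table whose symbol is Slc25a followed by a number, which gave 47 genes of the 55292 listed. Each library is 1 OHC picked by hand at postnatal day 10. The 17 Casz1 CKO cells came from Atoh1Cre/+; Casz1flox/flox mice, and the 48 WT cells came from mice without these alleles. Both groups also carried Slc26a5FlpO/+ and Rosa26FSF-H2BEGFP/+, a FlpO recombinase under control of Slc26a5, the gene of the OHC motor protein prestin, and a nuclear green reporter that it switches on. Casz1 is a transcriptional regulator with zinc fingers, and the series concerns its part in hair cell fate and OHC survival. Atoh1Cre was present only in the CKO mice, so the presence of Cre and the loss of Casz1 cannot be told apart. Animals and litters are not named in the labels, so each genotype counts as 1 sample, cells are not replicates of a genotype, and no p-value is given.

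Slc25 proteins are small carriers, nearly all of the mitochondrial inner membrane, and each exchanges a set of metabolites, nucleotides, cofactors or ions between the cytosol and the matrix. The ADP/ATP carriers and the phosphate carrier supply oxidative phosphorylation with its substrates and bring the ATP out, while the aspartate/glutamate and oxoglutarate/malate carriers form the malate-aspartate shuttle that moves reducing power inwards. Hair cells depend on mitochondrial ATP and on mitochondrial calcium uptake, and OHCs are known for their sensitivity to oxidative and toxic stress.

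Total counts per cell ran from 8239671 to 15320549 in the CKO cells (median 12269271) and from 7458126 to 17107710 in the WT cells (median 11520603). Values are CPM, counts per 1000000 counts of all genes, and a group value is the CPM of counts summed over its cells. Casz1 itself had 46.2 CPM in the CKO cells and 53.3 CPM in the WT cells, with a count in 15 of 17 CKO and 42 of 48 WT cells. Its CPM per cell ran from 0 to 154 in CKO (median 41.7) and from 0 to 182 in WT (median 31.98), so counts over the whole gene gave no check of the deletion. The OHC genes Slc26a5 (1175 CPM in CKO and 931 CPM in WT) and Ocm (49172 CPM in CKO and 36667 CPM in WT) were counted in every cell. Summed CPM of 10 supporting cell markers per cell was 0 to 183 in CKO (median 0.239) and 0 to 402 in WT (median 26.4), and that of 6 inner hair cell markers was 0.121 to 321 in CKO (median 95.1) and 0.123 to 1159 in WT (median 220.1). Of 8 neuron markers 4 were measured, which here means at least 5 CPM in the group with more, and the list summed to 134.9 to 1176 CPM per cell in CKO and 98.9 to 1433 CPM in WT, mostly Map2 (317 CPM in CKO and 243 CPM in WT) and Snap25 (171 CPM in CKO and 186 CPM in WT). The 6 glia markers reached 220.4 CPM per cell in CKO and 459.5 CPM in WT, mostly Cnp (64.2 CPM in CKO and 119 CPM in WT), and the 7 mesenchyme markers reached 375 CPM in CKO and 700 CPM in WT, led by Pdgfra (47.2 CPM in CKO and 47.7 CPM in WT). The 6 macrophage markers reached 73.4 CPM per cell in CKO and 188 CPM in WT, chiefly C1qb (3.03 CPM in CKO and 18.8 CPM in WT), the 5 endothelium markers 176 CPM in CKO and 35.6 CPM in WT, and the 5 erythroid markers 49.2 CPM in CKO and 83.2 CPM in WT. Within these lists Gap43, Pmp22, C1qa, Cx3cr1, Otor and Cldn5 had no count in any cell. Mitochondrially encoded genes took a median of 4.76% of counts in the CKO cells and 6.52% in the WT cells, and the part of this share and of these markers in the results below was not tested. A female pattern (Xist counted, Y-linked genes not) was seen in 15 CKO and 9 WT cells, and 8 of those 9 were among WT cells 1 to 11. WT cells are also given by runs of their label numbers, 1 to 11, 12 to 45 and 46 to 48, which the labels do not call batches.

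The 47 members lie on 19 chromosomes, 4 of them on X. Exons of 14 members overlap those of another gene, by more than 10% of their length only in Slc25a33 (14.9%) and Slc25a35 (31.3%). In GENCODE M21 on GRCm38, Slc25a4 lies at chr8:46206797-46211284, Slc25a5 at chrX:36795651-36798807, Slc25a3 at chr10:91116574-91124059, Slc25a25 at chr2:32414487-32451445, Slc25a27 at chr17:43641891-43667214 and Slc25a37 at chr14:69241848-69285112. The bases upstream of the annotated start are shown for 3 members on which the description turns: Slc25a5, the highest of the family per length, Slc25a3, the phosphate carrier, and Slc25a25, which has the widest genotype ratio of the members with at least 10 counts in most cells. Sequences are from RefSeq on GRCm38.p6, written 5′ to 3′ on the gene's strand. The Slc25a5 stretch is chrX:36795347-36795596 on the plus strand, the Slc25a3 stretch chr10:91124060-91124217 on the minus strand, ended where an annotated exon begins, and the Slc25a25 stretch chr2:32424067-32424316 on the minus strand, before 1 of its 3 listed starts.
Slc25a5: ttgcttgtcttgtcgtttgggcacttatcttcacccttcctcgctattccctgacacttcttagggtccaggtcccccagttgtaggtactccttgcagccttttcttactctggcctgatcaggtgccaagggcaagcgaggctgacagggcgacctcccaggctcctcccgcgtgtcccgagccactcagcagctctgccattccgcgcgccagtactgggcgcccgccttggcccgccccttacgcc
Slc25a3: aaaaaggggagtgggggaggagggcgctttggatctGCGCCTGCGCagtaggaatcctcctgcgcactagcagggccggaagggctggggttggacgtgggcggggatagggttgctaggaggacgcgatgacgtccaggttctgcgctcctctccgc
Slc25a25: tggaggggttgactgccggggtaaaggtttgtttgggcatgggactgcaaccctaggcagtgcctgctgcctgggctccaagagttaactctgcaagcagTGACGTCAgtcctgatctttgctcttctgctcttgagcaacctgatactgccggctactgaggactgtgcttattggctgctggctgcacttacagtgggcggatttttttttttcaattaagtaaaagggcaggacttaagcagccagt
Capitals mark matches to either of 2 motifs searched on both strands, GCGC and TGCGC with any 1 base between them, bound by the respiratory gene regulator NRF1, and TGACGTCA, the cyclic AMP response element. In the 250 bases before the start, the NRF1 letters were found in 2 of 36 members that matched the promoter table, Slc25a3 and Slc25a31, against 4.23% of 27025 genes. The cyclic AMP response element was found in 2 of 36, Slc25a25 and Slc25a36, against 1.77% of genes. These matches are letters only and say nothing of binding in these cells.

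Of the 47 members, 43 had a count in at least 1 OHC, but few were counted in nearly every cell. Slc25a4, Slc25a5 and Slc25a3 had counts in all 65 cells, 19 members had a count in at least 50% of the cells, and 13 did so when at least 10 counts were asked for. A CKO cell held at least 10 counts of 9 to 21 members (median 18), and a WT cell of 11 to 24 (median 17). The family took 3037 to 5806 CPM per CKO cell (median 4722) and 3187 to 7452 CPM per WT cell (median 5187). Thus both groups overlapped widely in the size and the breadth of their carrier repertoire, and summed over cells the family had 4734 CPM in CKO and 5245 CPM in WT.

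**Figure D1:**
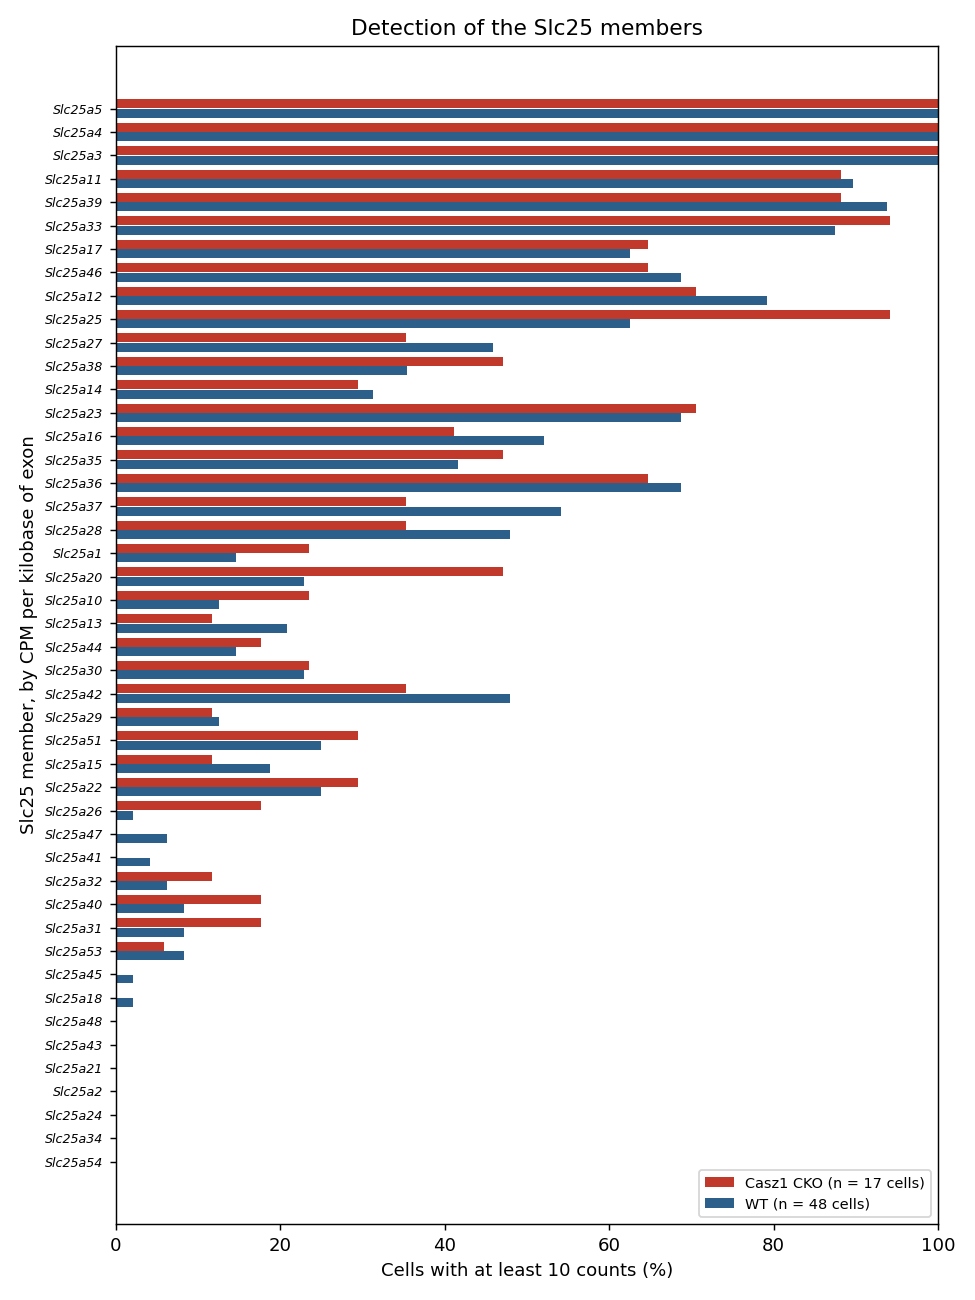
Percent of Casz1 CKO cells (red, n = 17) and WT cells (blue, n = 48) with at least 10 counts of each of 46 Slc25 members, ordered from top to bottom by CPM per kilobase of exon over all 65 cells. Slc25a5, Slc25a4 and Slc25a3 reach 100% in both groups, and 7 members at the bottom reach 10 counts in no cell.

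Levels of different genes were compared per kilobase of exon. On that scale the family was led by the ADP/ATP carriers, Slc25a5 with 757 and Slc25a4 with 696 CPM per kilobase over all cells, followed after a wide gap by Slc25a3 with 114. Next came Slc25a11 with 84.4, Slc25a39 with 74.1, Slc25a33 with 54.5 and Slc25a17 with 33.5 CPM per kilobase, then Slc25a46 with 20.8, Slc25a12 with 14.2, Slc25a25 with 12.4 and Slc25a27 with 10.2. The pair Slc25a4 and Slc25a5 held 69.7% of the family's summed CPM per kilobase in the CKO cells and 72.5% in the WT cells. Per kilobase, Slc25a5 ran from 230.0 to 1367 and Slc25a4 from 305 to 1233 CPM over the 65 cells, so these neighbours did not differ beyond their spread, while Slc25a3 ran from 3.81 to 223 and stayed below the lowest cell of either. From Slc25a3 downwards the ranges of all neighbours named here overlapped, since each of those after it was at 0 in some cell.

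**Figure D2:**
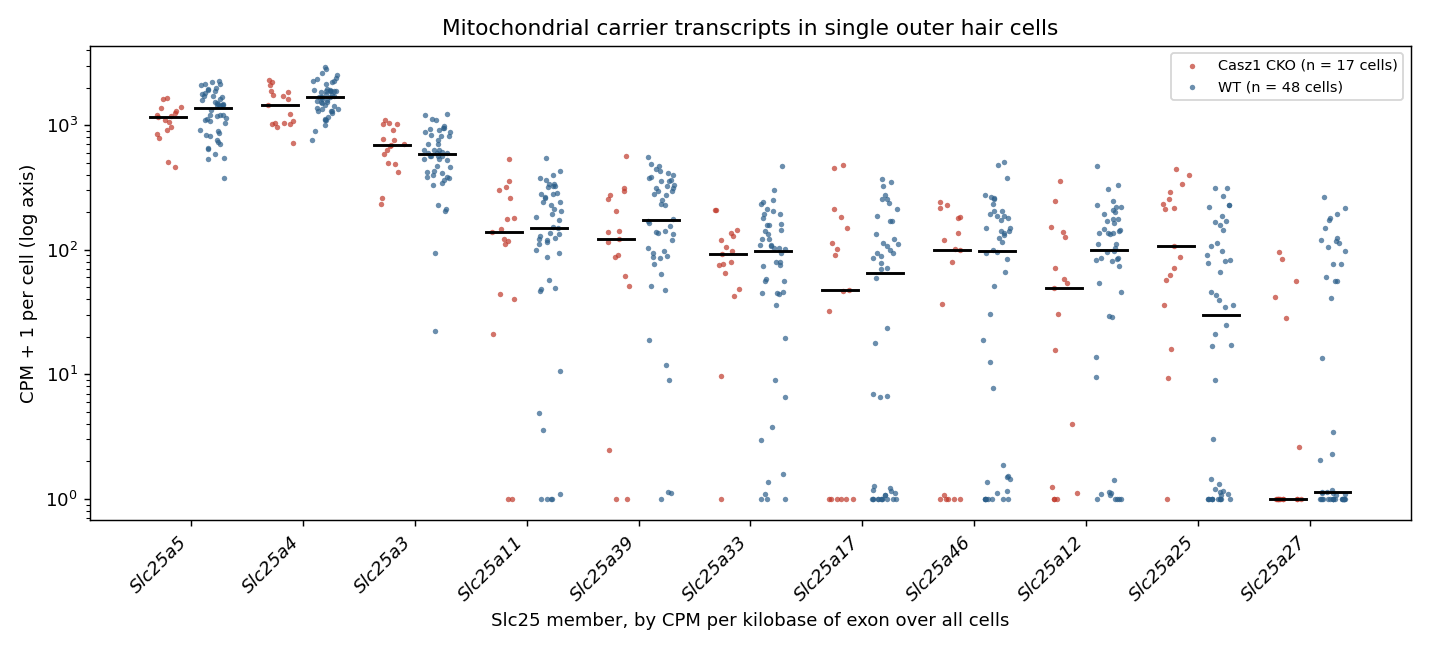
CPM + 1 per cell (log axis) of 11 members with the highest CPM per kilobase, in Casz1 CKO cells (red, n = 17) left of WT cells (blue, n = 48), each point 1 cell and each bar a group median. Slc25a5, Slc25a4 and Slc25a3 are counted in every cell, while members from Slc25a11 onwards spread from 0 upwards, and all pairs of groups overlap.

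Between the genotypes, 34 members were measured by that rule. Of these, 6 were at least 2-fold higher in CKO, namely Slc25a25, Slc25a20, Slc25a10, Slc25a51, Slc25a26 and Slc25a32, and 5 were at least 2-fold lower, namely Slc25a27, Slc25a37, Slc25a29, Slc25a15 and Slc25a22. Over all genes, 15.1% of 10842 measured genes were 2-fold higher in CKO and 14.5% were 2-fold lower, 29.5% in all, against 11 of 34 members. The members' share thus stood near the background, and it is not a result about the family. With at least 20 CPM asked for, 6 of 24 members differed 2-fold in either direction, against 17.9% of 7131 genes. Of the 11 members, Slc25a25 and Slc25a37 had at least 10 counts in at least 50% of the cells of a group. The median log2 ratio was -0.20 over the 34 members, 13 higher and 21 lower, and 0.0092 over the 10842 genes, 5469 higher and 5373 lower. The members' median was -0.23 against WT cells 12 to 45 and 0.026 against WT cells 1 to 11. It was 0.44 against the 3 WT cells 46 to 48, and 0.027 among cells of the female pattern. Over all genes measured in each of these subsets the medians were, in the same order, 0.0014, 0.057, 0.15 and 0.066. In the run of 3 cells, members without a count were set to 3 counts.

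**Figure D3:**
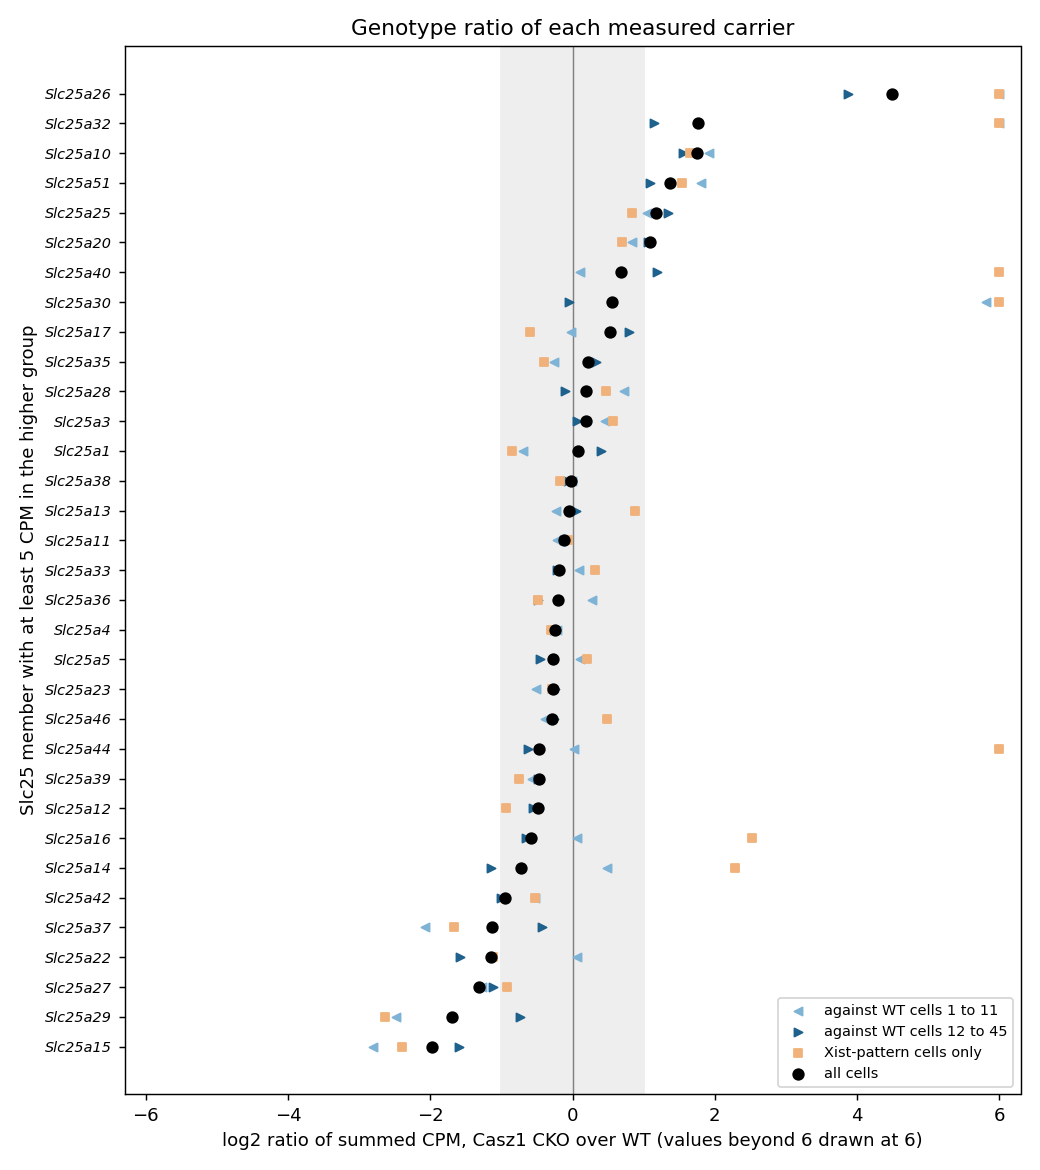
Log2 ratio of summed CPM, Casz1 CKO over WT, of 33 measured members, with all cells (black), against WT cells 1 to 11 and 12 to 45 (blue triangles) and within cells of the female pattern (orange squares). Shading marks less than 2-fold, a group at 0 counts was set to 3, and values beyond 6 are drawn at 6: 11 members lie outside the shading with all cells, and the subsets scatter most for members counted in few cells.

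Slc25a4 encodes ADP/ATP carrier 1, the form typical of muscle and other excitable tissue, and Slc25a5 encodes carrier 2, typical of growing cells. Slc25a4 ran from 719 to 2302 CPM in the CKO cells (median 1450) and from 757 to 2901 CPM in the WT cells (median 1674). Slc25a5 ran from 463 to 1660 CPM in the CKO cells (median 1168) and from 379 to 2250 CPM in the WT cells (median 1375). The highest cells of both genes were WT, the lowest lay in either group, and the ranges overlapped over most of their length. Summed, Slc25a4 had 1440 CPM in CKO and 1710 CPM in WT, a log2 ratio of -0.25, and Slc25a5 had 1082 CPM in CKO and 1305 CPM in WT, a log2 ratio of -0.27. Slc25a4 was lower in CKO also against each run of WT cells, with 1682, 1729 and 1645 CPM in WT cells 1 to 11, 12 to 45 and 46 to 48. For Slc25a5 the direction depended on the run, with 1002, 1489 and 805 CPM in those runs, and among cells of the female pattern it had 1092 CPM in CKO and 946 CPM in WT.

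The balance of the pair varied between cells. The share of Slc25a4 in the pair per kilobase was 29.9% to 70.9% in the CKO cells (median 48.2%) and 29.6% to 74.6% in the WT cells (median 45.97%). Slc25a4 exceeded Slc25a5 in 8 of 17 CKO cells and 16 of 48 WT cells. Median shares of the WT runs were 50.6%, 43.6% and 66.6%, a spread between runs wider than the difference between genotypes. How the authors treated reads that fit several genes is not given in the sources used here, and Slc25a5 has processed copies elsewhere in the genome. The annotated copy Slc25a5-ps, which the naming rule leaves out, had 0 CPM in CKO and 0.0073 CPM in WT. Slc25a31, the germ cell form ADP/ATP carrier 4, had 0.631 CPM in CKO and 1.56 CPM in WT, with at least 10 counts in 3 CKO and 4 WT cells.

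**Figure D4:**
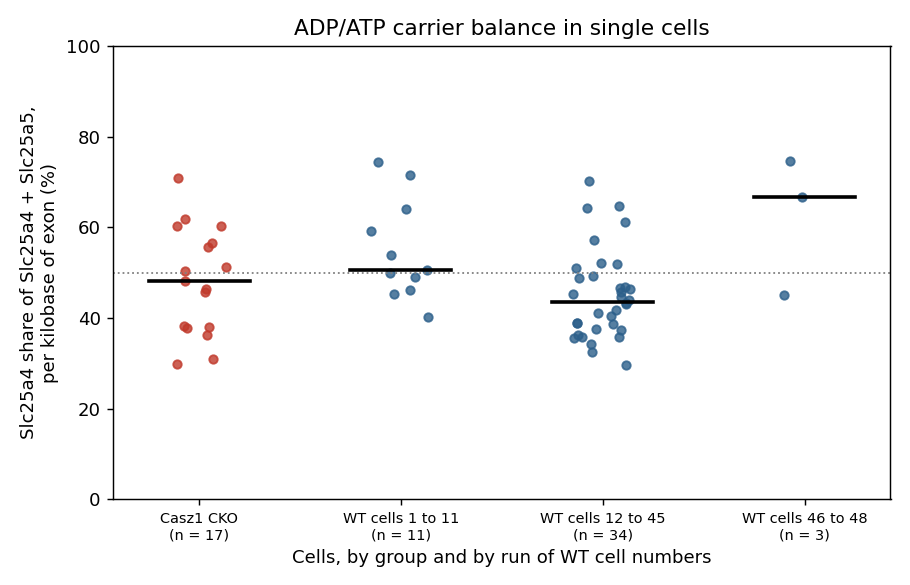
Share of Slc25a4 in Slc25a4 plus Slc25a5, in percent of CPM per kilobase, for each Casz1 CKO cell (n = 17) and for WT cells by run of label numbers (n = 11, 34 and 3), with bars at the medians. The CKO median of 48.2% lies between the WT run medians of 43.6% and 66.6%.

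Slc25a3, the carrier that brings phosphate into the matrix, ran from 232 to 1108 CPM in the CKO cells (median 688) and from 21.1 to 1236 CPM in the WT cells (median 582). Both the lowest and the highest cell were WT, and every CKO cell lay within the WT range. Summed, it had 692 CPM in CKO and 610 CPM in WT, a log2 ratio of 0.18, opposite in sign to the ADP/ATP carriers. WT runs had 503, 665 and 524 CPM, all below the CKO value.

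Slc25a25, one of the calcium-regulated carriers that exchange ATP-Mg for phosphate, had the widest ratio of the 13 members with at least 10 counts in at least 50% of the 65 cells. It ran from 0 to 447 CPM in the CKO cells (median 107) and from 0 to 313 CPM in the WT cells (median 28.8). At least 10 counts were found in 16 of 17 CKO cells and 30 of 48 WT cells, and 14 of 17 CKO cells lay above the WT median, yet WT cells also reached high values: 9 of 17 CKO cells and 13 of 48 WT cells exceeded 100 CPM. Summed, it had 165 CPM in CKO and 73.0 CPM in WT, 2.26-fold higher in CKO (log2 ratio 1.18, 95% counting interval 1.16 to 1.20). Of 2 genes switched on by cell stimulation that were looked up after these values were seen, Fos had 65.9 CPM in CKO (a count in 12 of 17 cells) and 33.9 CPM in WT (21 of 48 cells), and Nr4a1 had 16.3 CPM in CKO (4 cells) and 0.613 CPM in WT (1 cell). Their relation to Slc25a25 was not tested. Such counting intervals cover counting error only. Reads are not independent molecules where no molecular identifiers were used, so the intervals are far narrower than the spread of cells or animals. Pairing each CKO cell with each WT cell, 816 pairs, the CKO cell had the higher CPM in 72.6%, where a tied pair counted as 0.5. Leaving out any 1 cell kept the log2 ratio between 1.02 and 1.29. Against the WT runs, which had 79.5, 65.1 and 122 CPM, the log2 ratio was 1.05, 1.34 and 0.43, and among cells of the female pattern it was 0.83 (170.5 CPM in CKO and 95.8 CPM in WT), so it stood above 2-fold against WT cells 1 to 11 and 12 to 45 and below it in the other subsets.

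Per kilobase of exon, Slc25a25 had 20.97 CPM in CKO and 9.28 CPM in WT. Its relative Slc25a23 had 7.18 CPM per kilobase in CKO and 8.68 in WT, so their WT sums stood near each other. Slc25a23, the same kind of calcium-regulated carrier, had 38 CPM in CKO and 45.96 CPM in WT, a log2 ratio of -0.27. At least 10 counts of both Slc25a23 and Slc25a25 were found in 11 of 17 CKO cells and 18 of 48 WT cells. Slc25a24 had no count in any of the 65 cells, where 0 of 17 CKO cells allows a share of up to 19.5% and 0 of 48 WT cells up to 7.40% (exact binomial, for the sampling of cells only). Slc25a41, the short form without calcium-binding domain, had 0 counts in CKO and 910 counts in WT, and 96.9% of the WT counts came from WT cell 33. Slc25a17, a peroxisomal carrier of nucleotides and cofactors, ran from 0 to 475 CPM in CKO (median 46.3) and from 0 to 368 CPM in WT (median 63.8). Its sums of 123 CPM in CKO and 85.3 CPM in WT gave a log2 ratio of 0.53, which was 0.16 without CKO cell 14. Among cells of the female pattern the direction of Slc25a17 was the other way, with 90.1 CPM in CKO and 137 CPM in WT.

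In the malate-aspartate shuttle, the oxoglutarate/malate carrier Slc25a11 ran from 0 to 538 CPM in CKO (median 137) and from 0 to 549 CPM in WT (median 149). Sums of 169 CPM in CKO and 183 CPM in WT gave a log2 ratio of -0.12. Slc25a12, the aspartate/glutamate carrier aralar, ran from 0 to 353 CPM in CKO (median 48.01) and from 0 to 473 CPM in WT (median 99.3). Its sums were 80.6 CPM in CKO and 113 CPM in WT, a log2 ratio of -0.49, although WT cells 46 to 48, at 43.6 CPM, lay below the CKO value. Its paralog citrin, Slc25a13, had 14.1 CPM in CKO, from 2 cells, and 14.6 CPM in WT, from 19 cells. Without CKO cell 17 the CKO value was 5.90 CPM and without CKO cell 6 it was 9.15 CPM, so the near-equal sums rest on these 2 cells. Where the pair could be scored, aralar made up over 90% of it per kilobase in 11 of 13 CKO cells and 31 of 40 WT cells, so OHCs of both genotypes counted mainly aralar.

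Other carriers of organic acids were sparse. Slc25a10, the dicarboxylate carrier, had 28.7 CPM in CKO and 8.52 CPM in WT (log2 ratio 1.75, counting interval 1.70 to 1.81), with at least 10 counts in 4 CKO and 6 WT cells. CKO cell 15 gave 46.97% of its CKO counts, and without that cell the log2 ratio was 0.92. Slc25a22, a glutamate carrier, had 6.63 CPM in CKO and 14.7 CPM in WT (log2 ratio -1.15, counting interval -1.23 to -1.06), with a maximum of 66.3 CPM per cell in CKO and 223 CPM in WT. Its ratio passed 2-fold only narrowly, since without WT cell 15, 28, 32 or 41 it was -0.81, -0.96, -0.98 or -0.98, and without CKO cell 1, which gave 72.8% of its CKO counts, it was -2.92. The second glutamate carrier, Slc25a18, had 1 count in CKO and 143 counts in WT, all 143 in WT cell 47. The citrate carrier Slc25a1 had 13.1 CPM in CKO and 12.5 CPM in WT, but CKO cell 9 gave 58.5% of the CKO counts, and without it CKO had 5.80 CPM (log2 ratio -1.11). Slc25a21, the oxodicarboxylate carrier, had 1 count in CKO and 0 counts in WT.

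Among carriers of amino acids and acylcarnitine, 1 of 5 measured members was higher in CKO and 4 were lower. Slc25a20, which brings acylcarnitine in for fatty acid oxidation, had 35.7 CPM in CKO and 16.8 CPM in WT (log2 ratio 1.08, counting interval 1.04 to 1.13). It ran from 0 to 146 CPM per cell in CKO (median 0.112) and from 0 to 217 CPM in WT (median 0), with a count in 11 of 17 CKO cells and 15 of 48 WT cells. Without CKO cell 9, 13, 15 or 17 its log2 ratio was 0.80, 0.90, 0.79 or 0.87, so each of these cells alone decided whether it reached 2-fold. Slc25a15, the ornithine carrier of the urea cycle, had 4.15 CPM in CKO, from 2 cells, and 16.4 CPM in WT, from 11 cells (log2 ratio -1.98, and -3.42 without CKO cell 14). WT cells 46 to 48 had no count of it. Slc25a29, a carrier of basic amino acids, had 3.05 CPM in CKO, also from 2 cells, and 9.88 CPM in WT, from 10 cells (log2 ratio -1.70, and -3.80 without CKO cell 5). Slc25a38, needed for glycine import in haem synthesis, had 26.5 CPM in CKO and 26.95 CPM in WT. For Slc25a44, a branched-chain amino acid carrier, the values were 10.2 CPM in CKO and 14.1 CPM in WT, with 77.7% of the CKO counts in CKO cell 1 and 60.4% of the WT counts in WT cell 27. Its log2 ratio of -0.47 was -2.53 without that CKO cell and 0.83 without that WT cell, so 1 cell set its direction.

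All 11 carriers of cofactors, pyrimidine nucleotides, glutathione and iron were measured, 5 higher and 6 lower in CKO. Slc25a39, a carrier of glutathione into the matrix, ran from 0 to 566 CPM in CKO (median 120) and from 0 to 554 CPM in WT (median 172). Its sums were 159 CPM in CKO and 221 CPM in WT, a log2 ratio of -0.47, and its paralog Slc25a40 had at least 10 counts in only 3 CKO and 4 WT cells. Slc25a40 had a log2 ratio of 0.68, but -0.52 without CKO cell 1, and 1.45 or 1.44 without WT cell 9 or 34. Slc25a33, a pyrimidine nucleotide carrier, ran from 0 to 207 CPM in CKO (median 90.5) and from 0 to 468 CPM in WT (median 96.3), with sums of 93.5 CPM in CKO and 106 CPM in WT. Among cells of the female pattern its values were 98.8 CPM in CKO and 79.7 CPM in WT, the other direction. Reads on 14.9% of its exon length could belong to an overlapping gene. Its paralog Slc25a36 had 64.6 CPM in CKO and 74.6 CPM in WT.

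The mitoferrins import iron. Slc25a37, mitoferrin 1, ran from 0 to 110 CPM in CKO (median 0) and from 0 to 329 CPM in WT (median 2.22), with at least 10 counts in 6 of 17 CKO and 26 of 48 WT cells. Its sums of 22.7 CPM in CKO and 49.5 CPM in WT put it 2.19-fold lower in CKO (log2 ratio -1.13, counting interval -1.17 to -1.08), but the ratio was -0.84 without WT cell 5. WT cells 1 to 11 had 95.3 CPM, against 30.6 CPM in WT cells 12 to 45 and 38.2 CPM in WT cells 46 to 48, so the size of the difference varied with the run. Slc25a28, mitoferrin 2, had 24.4 CPM in CKO and 21.3 CPM in WT, and without CKO cell 7, 8 or 14 the CKO value was 20.1, 18.9 or 21.04 CPM, below WT. In cells where the mitoferrin pair could be scored, the median share of mitoferrin 2 per kilobase was 72.9% over 8 CKO cells and 18.6% over 37 WT cells, and both groups reached from 0% to 100%. By run, the median was 11.4% over 9 of WT cells 1 to 11 and 72.2% over 27 of WT cells 12 to 45. The 1 cell scored among WT cells 46 to 48 had 0%. The WT median thus varied with the run, and that of WT cells 12 to 45 stood near the CKO median.

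Of the rarer cofactor carriers, Slc25a51, which imports NAD, had 25.7 CPM in CKO and 9.92 CPM in WT (log2 ratio 1.37, counting interval 1.32 to 1.43), with at least 10 counts in 5 CKO and 12 WT cells. Slc25a51 stayed between 1.05 and 1.76 on the log2 scale when any 1 cell was left out. Slc25a26, the S-adenosylmethionine carrier, had 17.7 CPM in CKO and 0.785 CPM in WT, the widest ratio of a measured member (log2 4.497). It rests on 3540 counts in 3 CKO cells, numbers 16, 9 and 15, against 430 counts in 2 WT cells, 429 of them in WT cell 17. Leaving out CKO cell 9 or 16 gave a log2 ratio of 3.91 or 3.83, and leaving out WT cell 17 left 1 count in WT. Slc25a32, a folate and FAD carrier, had 10.4 CPM in CKO, from 2 cells, and 3.07 CPM in WT, from 5 cells (log2 ratio 1.76). Without CKO cell 2 or 7 it was 0.997 or 0.69, and without WT cell 29 it was 3.46. The coenzyme A carrier Slc25a42, with 11.04 CPM in CKO and 21.3 CPM in WT, lay just inside 2-fold at -0.95.

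Relatives of the uncoupling proteins were sparse as well. Slc25a27, uncoupling protein 4, best known from brain, ran from 0 to 95.5 CPM in CKO (median 0) and from 0 to 266 CPM in WT (median 0.13). Counts were found in 6 of 17 CKO cells and 29 of 48 WT cells, and no CKO cell but 11 WT cells exceeded 100 CPM. Its sums of 19.1 CPM in CKO and 47.5 CPM in WT gave a log2 ratio of -1.31 (counting interval -1.36 to -1.26), and leaving out any 1 cell kept it between -1.75 and -1.12. All 3 WT runs were above the CKO value, with 46.4, 41.5 and 112 CPM, while among cells of the female pattern the values were 19.4 CPM in CKO and 36.6 CPM in WT, just under 2-fold. Slc25a14, uncoupling protein 5, had 14.3 CPM in CKO and 23.6 CPM in WT, but its direction depended on the run. In the order of label numbers, the WT runs had 10.2, 31.8 and 0.771 CPM of Slc25a14, so only the middle run lay above CKO. Among cells of the female pattern it had 16.2 CPM in CKO and 3.32 CPM in WT, the other direction. Slc25a30 had 18.7 CPM in CKO and 12.7 CPM in WT. CKO cell 9 gave 52.99% of the CKO counts of Slc25a30, and without it CKO had 9.38 CPM, lower than WT (log2 ratio -0.44).

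Slc25a46, which sits in the outer membrane and bears on mitochondrial fission and fusion, ran from 0 to 239 CPM in CKO (median 99.1) and from 0 to 502 CPM in WT (median 96.6). Sums of 97.3 CPM in CKO and 119 CPM in WT gave a log2 ratio of -0.29. For Slc25a46 that ratio was -0.02 without the cell of highest total in each group, and among cells of the female pattern the direction turned, with 110.4 CPM in CKO and 78.5 CPM in WT. Members for which no transported substrate is named here were mostly at or near 0. Slc25a16 had 28.8 CPM in CKO and 43.2 CPM in WT, but 32.7 CPM in CKO and 5.70 CPM in WT among cells of the female pattern. Slc25a35, whose exons overlap another gene, had 33.6 CPM in CKO and 28.8 CPM in WT. Without CKO cell 5, 11 or 13 the Slc25a35 value in CKO was 28.4, 27.7 or 27.2 CPM, below WT. Slc25a53 had 63 counts in CKO, all in 1 cell, and 2226 counts in WT, 68.5% of them in WT cell 46.

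Besides Slc25a24, the members Slc25a2, Slc25a34 and Slc25a54 had no count in any cell. Slc25a47 had 0 counts in CKO and 2290 counts in 7 WT cells, 53.8% of them in WT cell 29. With 3 counts over the CKO group as the limit of detection, Slc25a47 was at least 278-fold lower in CKO, a bound for counting error only. By cells, a count in 0 of 17 CKO cells allows a share of up to 19.5%, and 14.6% of WT cells had a count. Cells are not replicates of a genotype, so these shares cannot decide whether its absence from the CKO cells goes with genotype. Without WT cell 29 the Slc25a47 bound was 131-fold, and WT cells 29 and 11 together held 2207 of its 2290 counts. By the same limit Slc25a41 was at least 111-fold lower, but at least 3.48-fold without WT cell 33. Neither gene was measured by the rule of 5 CPM, with 4.18 CPM in WT for Slc25a47 and 1.66 CPM for Slc25a41. Slc25a45 had 0 counts in CKO and 346 counts in WT, and since WT cell 11 held 345 of them no fold is given. Slc25a48 had 0 counts in CKO and 3 in WT, and Slc25a43 had 0 counts in CKO and 1 in WT, too few for a fold.

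Summed counts of members that lie beside each other on a chromosome, not scaled by length, differed in all but the last pair below. On X, Slc25a5 and Slc25a43 are 18448 bases apart and had 931317 counts and 1 count over all cells. On chromosome 17, Slc25a23 and Slc25a41 are 2056 bases apart, with 32774 and 910 counts. On chromosome 12, Slc25a29 and Slc25a47 are 162 bases apart on opposite strands, with 6023 and 2290 counts. On chromosome 3, Slc25a24 and Slc25a54, 6461 bases apart, both had 0 counts.

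Genes that work with the carriers were set beside them. Of family members with other symbols, 4 of 5 were measured, 1 higher and 3 lower in CKO and none 2-fold: Mtch2, an outer membrane insertase, had 160 CPM in CKO and 114 CPM in WT, and Ucp3, an uncoupling protein, had 47.6 CPM in CKO and 63.7 CPM in WT. The import route of carrier proteins through the TIM22 complex was measured for all 13 genes listed, 5 higher and 8 lower. In that list the chaperone Timm10 was over 2-fold lower with all cells (3.97 CPM in CKO and 11.6 CPM in WT, log2 ratio -1.54). Timm10 had a count in only 3 CKO and 15 WT cells. Among cells of the female pattern it had 4.51 CPM in CKO and 5.35 CPM in WT. WT runs had 6.35, 11.5 and 34.7 CPM of Timm10. Its difference was thus under 2-fold in the female pattern and against the first run. The chaperone Timm8a1 had 18.6 CPM in CKO and 12.0 CPM in WT. Redox shuttle enzymes gave 3 higher and 2 lower of 5 measured, with 74.9 CPM in CKO and 40.04 CPM in WT for the glycerol phosphate dehydrogenase Gpd2 (log2 ratio 0.90) and 136 CPM in CKO and 117 CPM in WT for the mitochondrial aspartate aminotransferase Got2. Pyruvate carriers and outer membrane channels gave 2 higher and 3 lower of 5, with 244 CPM in CKO and 329 CPM in WT for Vdac2 and 450 CPM in CKO and 352 CPM in WT for Vdac3. ATP synthase subunits gave 4 higher and 12 lower of 16, none 2-fold, with 302 CPM in CKO and 386 CPM in WT for Atp5g1 and 383 CPM in CKO and 487 CPM in WT for Atp5l. The median log2 ratios of these 5 lists were -0.22, -0.14, 0.11, -0.062 and -0.073 in the order given. Over all 10842 measured genes the median was 0.0092, with 5469 higher and 5373 lower in CKO. Whether the split of any list departs from that of all genes was not tested.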

How the data were processed

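Counts per gene and cell, whole numbers, are as deposited by the authors in 1 table. Full-length cDNA came from the Smart-Seq HT kit, which adds no molecular identifiers, and was tagmented, per the labels' protocols. Per the submitters' processing notes, HISAT2 2.2.1, StringTie 2.2.1 and featureCounts 2.0.1 were used on mm10. For the annotation, the strand setting and reads that fit several genes, the choice is not given in the sources used here. Titles and design name OHCs and were followed, although the protocol text speaks of IHCs and iOHCs.

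Counts were summed over all cells of a genotype and divided by their total to give CPM. No cell was removed, and no 2 cell columns were identical. Group values carry exact Poisson and log2 ratios exact conditional (Clopper-Pearson) 95% intervals, for counting error only. For a group at 0, a bound was computed with 3 counts in its place. Members were called measured from 5 CPM upwards in the group with more. Exon lengths and positions came from GENCODE M21 (GRCm38), where 53180 symbols matched once, and levels between genes used CPM per kilobase of merged exons. Shares within a pair needed at least 10 counts over both genes. The female pattern is Xist at 10 counts or more with the Y-linked genes summing to less than 10.

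The rule for named genes took the 12 members highest per kilobase, those measured with at least a 2-fold ratio, those with no count in a group, and up to 2 genes per context list. One member so chosen is not reported here. The remaining members are given by their sums so that the family is accounted for, and these, with the values of leaving out single cells for them, were added after the data were seen. The family, these lists and the runs of WT cells were chosen with earlier results of these data known. Scripts used Python 3.11.15 with pandas 2.3.3 and scipy 1.17.1, and the ratios were tested on simulated data. Alternatives were edgeR 4.0.16 TMM and DESeq2 1.42.0 size factors, other totals, summaries of cells, filters, subsets of cells, thinning to 7000000 counts, and the longest transcript as length.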

Additional observations from a re-analysis of the deposited data

How the results depend on the processing

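The counts of members at least 2-fold higher (6) and lower (5) in CKO and the median log2 ratio (-0.20) were recomputed under each alternative. With the median of CPM per cell, 13 members could be used, of which 1 was higher and 1 lower. With at least 20 CPM, 2 members were lower, and with any count 11 were lower. Both differences follow from how many members enter, 24 and 40 in place of 34. Against WT cells 46 to 48 alone, 13 members were higher and the median was 0.44, beside 0.15 over all genes. Of those 13, Slc25a1, Slc25a10, Slc25a20, Slc25a22, Slc25a26, Slc25a28, Slc25a30, Slc25a32, Slc25a35 and Slc25a51 had no count in these 3 cells. With 3 counts in place of 0, their log2 ratios were 6.33 to 8.76. The part of these members in the median was not tested. TMM factors gave a median of -0.23 and DESeq2 factors -0.15, with the same 11 members at 2-fold and, for DESeq2, 6 lower members in all. Leaving out 1 cell at a time gave 4 to 7 higher members, 4 to 7 lower members and a median of -0.23 to -0.12. Among the 11 members at 2-fold, reversed signs were Slc25a22 at 0.057 against WT cells 1 to 11 and at 6.33 against WT cells 46 to 48, and Slc25a15 at 5.65 against WT cells 46 to 48, a run of 3 cells with no count of either gene, set to 3 counts. Of the highest members under 2-fold, Slc25a5, Slc25a11, Slc25a39, Slc25a33, Slc25a17, Slc25a46 and Slc25a12 also changed sign in at least 1 subset of cells, while Slc25a4 and Slc25a3 did not. With at least 10 counts per cell, 13 members were in at least 50% of cells, and 17 after thinning to 7000000 counts, in place of 19. Using the longest transcript as length kept 11 of the 12 highest members.

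No paired analysis was possible because the cell numbers of the 2 genotypes name different cells and the labels tie none to an animal. Genotype, Cre, sex pattern and run cannot be fully told apart: none of the CKO cells had the male pattern, 37 WT cells did, and 1 sample per genotype gives no measure of spread between animals. Of the 11 members at 2-fold, 9 had at least 10 counts in under 50% of the cells of each group.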
